A study of Homo sapiens with 83 samples.

Results

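Ribosome biogenesis factors are the proteins that build a ribosome without becoming part of it. They were followed here as 59 genes of the 60237 in the expression table, chosen by gene symbol and sorted into 10 assembly steps. The choice was made with earlier results of these data known. Each symbol had a single entry, and every member passed the minimum mean level for testing in both cell lines. RNA sequencing of polyadenylated RNA covered 83 libraries from SHEP and SKNAS, human neuroblastoma lines carrying N-MYC-ER, a constitutively expressed fusion of N-MYC with the ligand-binding part of the estrogen receptor. In MYC-ON cells the fusion was activated with 4-hydroxytamoxifen (4OHT), and MYC-OFF cells received ethanol. All 4 groups (SHEP_MYC-OFF, SHEP_MYC-ON, SKNAS_MYC-OFF and SKNAS_MYC-ON) carried the fusion and were entrained with dexamethasone, and circadian time (CT) counts the hours since then. None received 4OHT without the fusion, so effects of 4OHT and of the activated fusion cannot be told apart here. Ethanol or 4OHT was given before dexamethasone, so time since that treatment and time in culture run with CT. SHEP had 2 time series per condition with 14 collections each, every 4 h from CT24 to CT76, or 28 libraries in each group. For SKNAS 1 series per condition was analysed, with 14 MYC-OFF libraries and 13 MYC-ON libraries, the latter ending at CT72. A repeat of the SKNAS series is not analysed here, and whether an engineered line is 1 clone is not given in the sources used here.

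Ribosomal RNA is transcribed in the nucleolus as a long precursor that carries the RNAs of both subunits. Small nucleolar RNPs (snoRNPs) modify it, the small-subunit processome folds and cuts the part that becomes the 40S subunit, and a separate series of nucleolar, nuclear and cytoplasmic factors matures the 60S subunit. MYC proteins are known regulators of this program, and they bind a DNA element called the E-box, CACGTG, which the circadian activators CLOCK and BMAL1 also recognise. The comparisons ask how the members' levels differed between MYC-ON and MYC-OFF, whether the change differed between lines, and whether it moved with CT.

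The promoter sequences (250 bases before to 50 bases after the gene start, RefSeq, GRCh38.p14) were searched for CACGTG, which reads the same on both strands. Of the 59 members, 51 had a promoter in the table, and 23 of these 51 held the hexamer, a share of 45.1%. The same share was 8.77% over all 27305 genes in the promoter table and 12.6% over the 10282 genes among them that passed the level filter in SHEP. In 22 of the 23 members the hexamer began within 50 bases of a gene start, and in 16 of those 22 it lay after the start. CACGCG on either strand, a variant element that does not overlap the search for CACGTG, was held by 16 of the 51 (31.4%), by 13.5% of all genes in the table and by 22.6% of those tested in SHEP. The windows shown are those of members from several assembly steps that carry the hexamer near the start. They are written 5′ to 3′ along the gene's strand with the hexamer in capitals, and UTP20 is shown as a member with the hexamer whose level did not pass the test in SHEP.
FBL, chr19:39846356-39846385, minus strand: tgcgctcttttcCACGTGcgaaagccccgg
MRTO4, chr1:19251807-19251836, plus strand: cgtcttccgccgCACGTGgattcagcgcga
NOP14, chr4:2963374-2963403, minus strand: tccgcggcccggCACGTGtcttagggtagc
IMP4, chr2:130342900-130342929, plus strand: ttctcccggaccCACGTGgaagcggcactc
PES1, chr22:30591880-30591909, minus strand: tccttggcagggCACGTGcgggaggaagtg
UTP4, chr16:69132621-69132650, plus strand: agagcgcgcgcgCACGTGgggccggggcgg
GAR1, chr4:109815781-109815810, plus strand: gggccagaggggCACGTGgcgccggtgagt
RRP9, chr3:51941892-51941921, minus strand: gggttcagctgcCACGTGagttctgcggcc
NAT10, chr11:34105602-34105631, plus strand: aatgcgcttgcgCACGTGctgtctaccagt
UTP20, chr12:101280083-101280112, plus strand: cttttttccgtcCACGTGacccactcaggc

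Members with the hexamer and members without it had similar changes. The median log2 change in SHEP, described in the next paragraphs, was 0.76 over the 23 members with CACGTG and 0.68 over the 28 without it, and 21 of the 23 and 26 of the 28 were called higher. In SKNAS the medians were 0.58 and 0.64, and 0.91 and 0.79 with each library's median level as a covariate, so their order turned. The split did not take CACGCG into account. A match in such a window is a description of the sequence and not of binding.

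Levels are in TPM, a relative abundance, that is a share of each library corrected for transcript length, so that a rise of some genes lowers others and the sequencing depth of a library is unknown. Changes are differences of log2(TPM + 1), and a call needed an adjusted p of no more than 0.05 (limma, Benjamini-Hochberg over all genes tested) together with a log2 difference of 0.15 or more in size. In bulk RNA, a change in the number of cells of a kind and a change of RNA per cell cannot be told apart. Together the 59 members made up 0.609% ± 0.024 of all TPM in SHEP_MYC-OFF and 1.27% ± 0.096 in SHEP_MYC-ON (SD, n = 28 each), with ranges of 0.577 to 0.677% and 1.05 to 1.40% that did not overlap. In SKNAS the shares were 0.674% ± 0.061 (SD, n = 14) in MYC-OFF and 1.23% ± 0.15 (SD, n = 13) in MYC-ON, and their ranges, 0.542 to 0.731% and 0.969 to 1.42%, did not overlap either. NPM1 alone supplied 21.5% and 30.2% of the members' sum in SHEP and 20.7% and 24.6% in SKNAS.

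Some library facts touch every SKNAS value. The median log2(TPM + 1) of the tested genes lay between 3.93 and 4.17 in the 56 SHEP libraries, but between 2.97 and 4.38 in SKNAS_MYC-OFF and between 2.76 and 4.25 in SKNAS_MYC-ON, and 7 SKNAS libraries (3 MYC-OFF, 4 MYC-ON) lay under 3.3. The mean was 3.92 ± 0.52 in SKNAS_MYC-OFF and 3.52 ± 0.48 in SKNAS_MYC-ON (SD), so a fit with this median as a covariate uses a term that itself moves with the condition. MYCN, which includes the fusion transcript, ranged from 29.1 to 50.3 TPM in those 3 MYC-OFF libraries against 179 to 987 in the other 11, and from 13.1 to 86.6 in those 4 MYC-ON libraries against 255 to 1046 in the other 9. In SHEP, MYCN was at 555 ± 70.8 TPM in MYC-OFF and 377 ± 69.5 in MYC-ON (SD, n = 28 each), and its level does not check the labels, because 4OHT acts on the fusion protein. Endogenous MYC was lower in MYC-ON in either line, with a log2 difference of -1.87 ± 0.10 in SHEP and -2.53 ± 0.19 in SKNAS (SE). As for cell identity, 5 or 6 of 6 mesenchymal neuroblastoma markers had a mean of at least 1 TPM in each group. Of 6 adrenergic markers 2 reached that mean in SHEP and 3 in SKNAS, where their summed level was 121 to 317 TPM in MYC-OFF and 44.7 to 173 in MYC-ON. Among them HAND2, a transcription factor of the sympathetic lineage, was at 161 ± 48.6 TPM in SKNAS_MYC-OFF and 78.9 ± 26.4 in SKNAS_MYC-ON, and in SHEP at 15.7 ± 2.46 and 26.6 ± 3.84 (SD). Of 7 markers of other cell types none reached a mean of 1 TPM in SHEP, where their summed level was 0.343 to 2.84 TPM in MYC-OFF and 0.441 to 2.81 in MYC-ON. The sum was 13.3 to 132 TPM in SKNAS_MYC-OFF and 3.54 to 62.1 in SKNAS_MYC-ON, most of it PTPRC (80.4 ± 43.1 and 21.5 ± 18.6, SD), a leukocyte gene, while CD3E was at 0 in every SKNAS library. The part of the library medians, of MYCN, of the adrenergic markers and of PTPRC in the members' values was not tested.

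**Figure D1:**
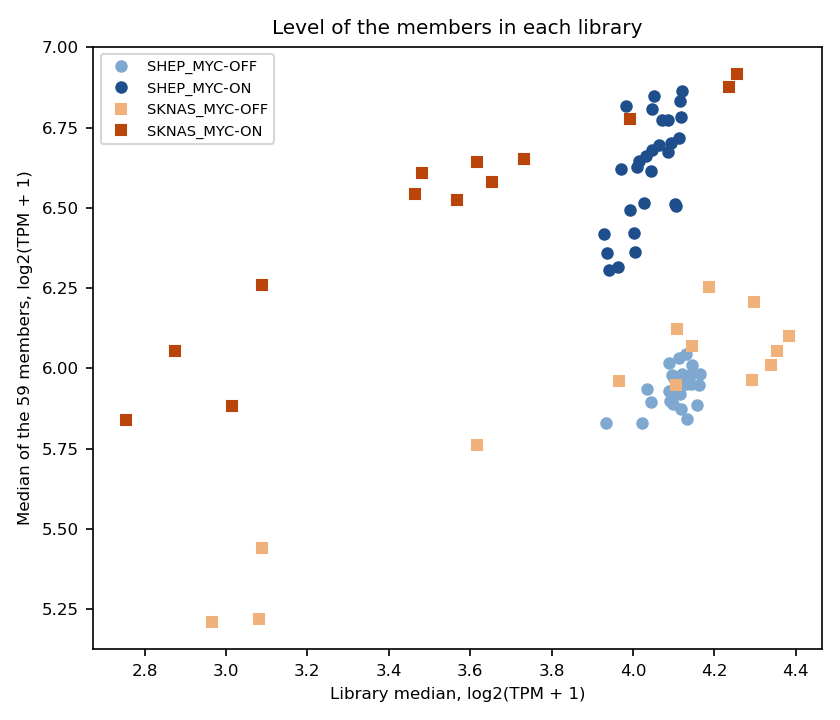
Median level of the 59 members (vertical axis, log2(TPM + 1)) against the median of all tested genes of the same library (horizontal axis, log2(TPM + 1)), 1 point per library, coloured by group. The SHEP groups are separate, at 5.83 to 6.05 in MYC-OFF and 6.31 to 6.86 in MYC-ON, whereas in SKNAS the members' median follows the library median within each group.

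In SHEP, most of the ribosome biogenesis factors were higher in MYC-ON than in MYC-OFF. Of the 59 members, 54 were called higher in MYC-ON and 1 lower, where 33.0% of the 14362 genes tested were called higher and 38.9% lower. At the 1.5-fold level (a log2 change of at least 0.66) 30 members were higher, against 9.39% of all genes. The members' median change was 0.68 with an SD of 0.45 over members, beside -0.04 over all genes tested. In 41 members MYC-ON exceeded MYC-OFF in all 28 pairs of libraries of the same series and CT. In 33 members every MYC-ON library lay above every MYC-OFF library. How many of all genes did so was not counted, so these counts only describe the members. With each series tested alone, 50 of the 54 were called higher in both (25.9% of all genes met this), and the exceptions were NOP10, BYSL, NIP7 and GNL3L. In SKNAS 39 members were called higher and 1 lower, against 13.7% and 34.4% of 13886 genes, and 27 were higher at the 1.5-fold level, against 6.97%. The SKNAS median was 0.63, beside -0.29 over all genes. In SKNAS 25 members were higher in all 13 pairs of the same CT, and 17 had groups without overlap. These were not counted over all genes either. With the TPM rescaled by median of ratios the SKNAS counts became 52 higher and 0 lower, and with the library median as a covariate 54 higher and 0 lower, with medians of 0.98 and 0.86, where 26.4% and 28.3% of all genes were called higher. The 39 members higher in SKNAS were all among the 54 higher in SHEP.

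**Figure D2:**
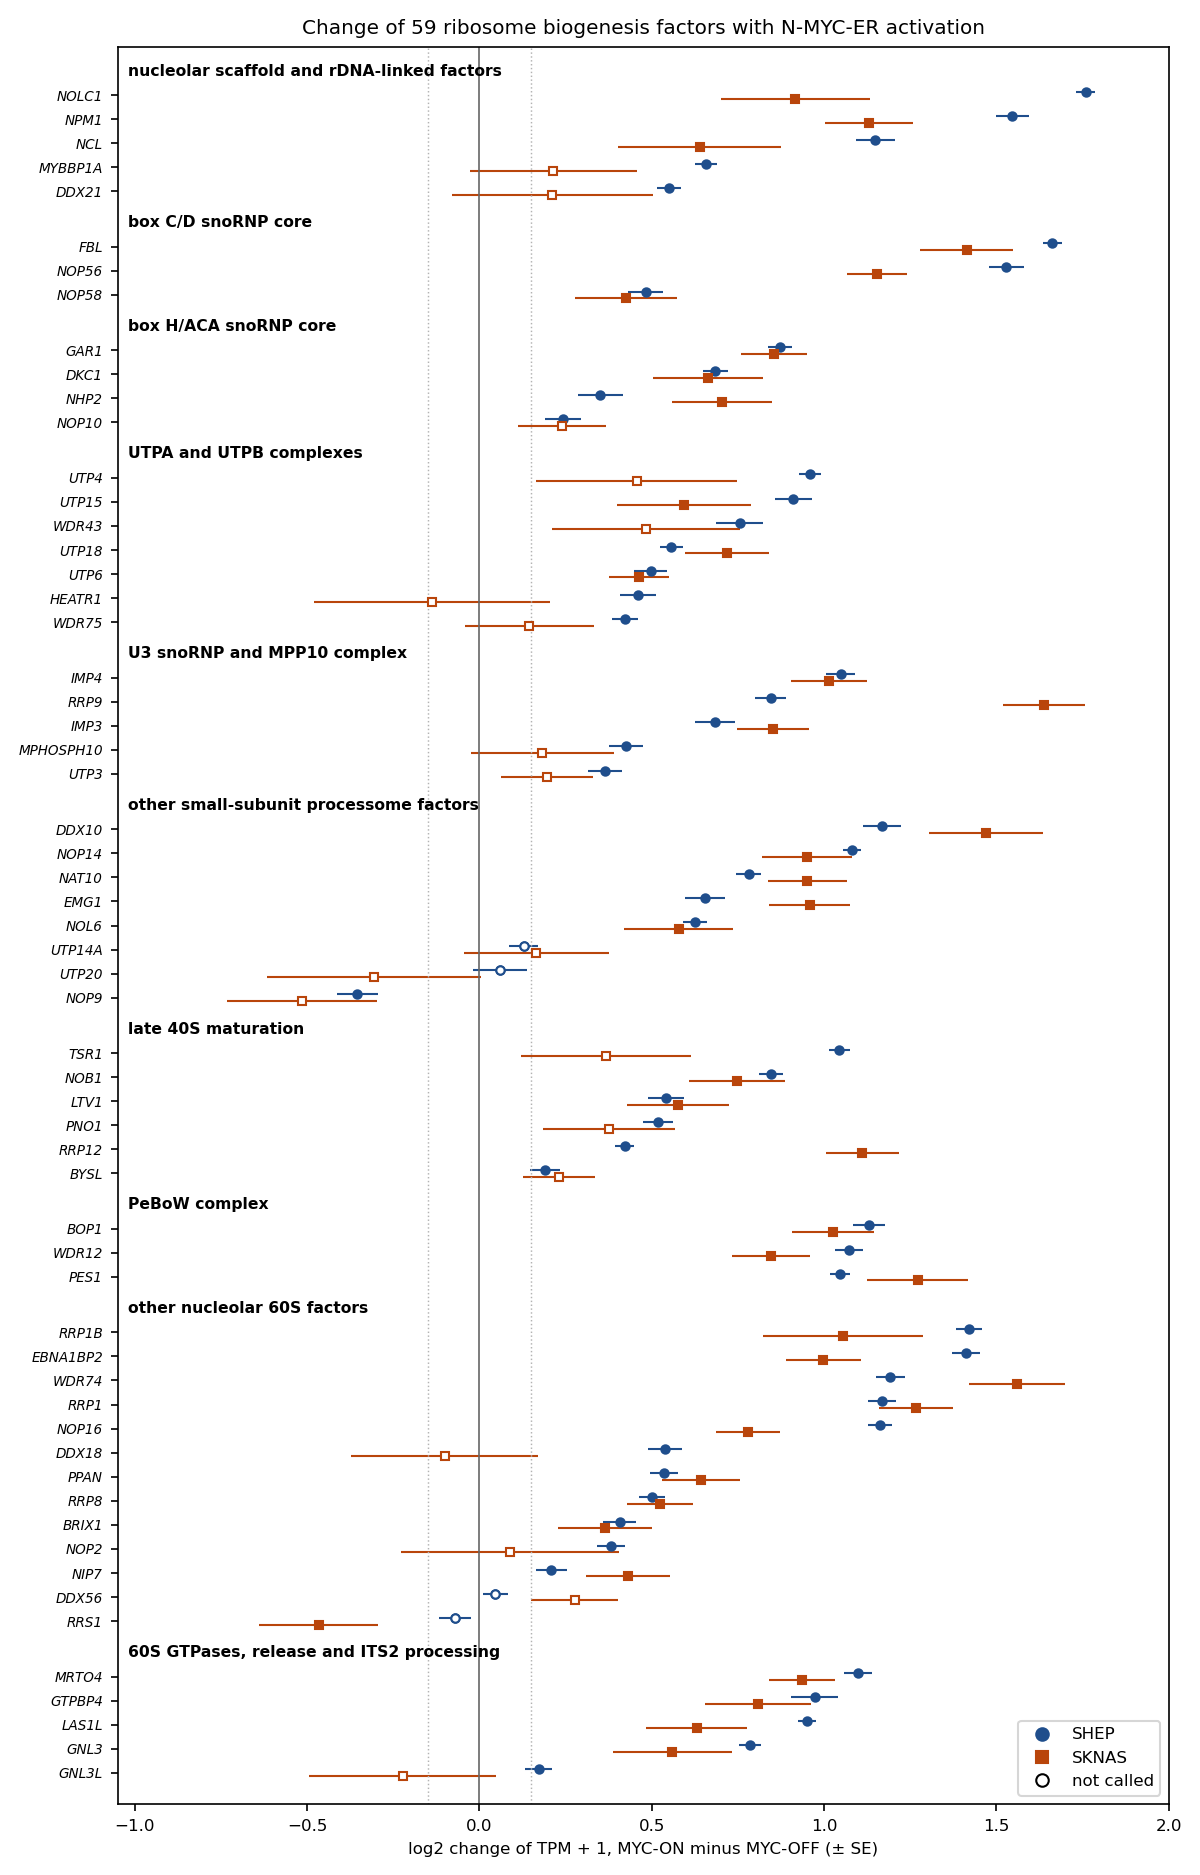
Log2 change of TPM + 1 between MYC-ON and MYC-OFF (horizontal axis, ± SE) for the 59 members, grouped by assembly step, in SHEP (circles) and SKNAS (squares), with open symbols where the change was not called and dotted lines at 0.15 either way. The SHEP values run from -0.35 (NOP9) to 1.76 (NOLC1), and the SKNAS errors are wider.

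Among the 5 nucleolar scaffold and rDNA-linked factors all were higher in SHEP. NOLC1 (ENSG00000166197, chromosome 10, 102152176 to 102163871, plus strand), a nucleolar phosphoprotein that chaperones snoRNPs, had the largest change of all members. Its lowest, median and highest TPM were 71.5, 84.5 and 91.9 in SHEP_MYC-OFF and 239, 291 and 319 in SHEP_MYC-ON, so the groups did not overlap. The log2 change was 1.76 ± 0.027 (SE, adjusted p = 8.17e-42). NPM1 (ENSG00000181163, chromosome 5, 171387116 to 171411810, plus strand), the abundant histone chaperone of the granular nucleolus, ran from 1143, 1266 and 1759.5 TPM in MYC-OFF to 2899, 3864 and 4736 in MYC-ON (lowest, median and highest), again without overlap, with a log2 change of 1.55 ± 0.048. NPM1 has processed copies elsewhere in the genome, and reads could be split among them in the authors' quantification. NCL (ENSG00000115053, chromosome 2, 231453531 to 231483641, minus strand), nucleolin, which binds nascent precursor RNA, stood at 476, 616 and 745 TPM in MYC-OFF and 866, 1484 and 1737 in MYC-ON and changed by 1.15 ± 0.058. MYBBP1A, a nucleolar regulator of rRNA synthesis, changed by 0.66 ± 0.032. DDX21, an RNA helicase of rRNA transcription and processing, had the smallest change of the step, 0.55 ± 0.035, from 106, 128 and 139 TPM to 162, 183 and 231, and its groups did not overlap. In SKNAS, NPM1, NOLC1 and NCL were called higher. MYBBP1A (0.21 ± 0.24, adjusted p = 0.48) and DDX21 (0.21 ± 0.29, adjusted p = 0.566) did not pass the test. Both did with rescaling, at 0.56 and 0.56, and with the library median as a covariate, at 0.80 and 0.95.

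The 3 core proteins of box C/D snoRNPs, which guide methylation of the RNA's ribose, rose in both lines. FBL (ENSG00000105202, chromosome 19, 39834458 to 39846379, minus strand), fibrillarin, the methyltransferase itself, had 155, 187 and 213 TPM in SHEP_MYC-OFF and 474, 590.5 and 694 in SHEP_MYC-ON. In SKNAS it had 334, 377 and 634 TPM in MYC-OFF and 771, 1235 and 1400.3 in MYC-ON. The groups of neither line overlapped, and the changes were 1.66 ± 0.028 in SHEP (adjusted p = 2.49e-40) and 1.41 ± 0.13 in SKNAS (adjusted p = 8.33e-07). NOP56, a scaffold of the particle, changed by 1.53 ± 0.05 in SHEP and 1.15 ± 0.086 in SKNAS. Its partner NOP58 changed less, by 0.48 ± 0.05 and 0.43 ± 0.15, with 70.5, 79.0 and 89.2 TPM in SHEP_MYC-OFF and 69.4, 112 and 144 in SHEP_MYC-ON, ranges that overlapped. The changes of the particle's 3 proteins thus ran from 0.48 to 1.66 in SHEP, and the differences between proteins were not tested.

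All 4 core proteins of box H/ACA snoRNPs, which guide pseudouridine formation, were called higher in SHEP. GAR1, which helps to release the modified RNA, had the largest change, 0.87 ± 0.035, from 71.2, 76.9 and 85.6 TPM to 106, 146 and 168, and its groups did not overlap. The pseudouridine synthase DKC1 changed by 0.68 ± 0.036 and NHP2, an RNA-binding subunit, by 0.35 ± 0.065. NOP10, a small structural subunit, had the smallest change at 0.24 ± 0.052, and its ranges overlapped (280.4, 337 and 384 TPM in MYC-OFF, 237, 412 and 515 in MYC-ON). NHP2 and NOP10 were among the 5 most abundant members, with means of 413 and 408 TPM over all libraries, after NPM1 (2458.0), NCL (879) and FBL (512). In SKNAS, GAR1, NHP2 and DKC1 were higher and NOP10 did not pass (0.24 ± 0.13, adjusted p = 0.131). NOP10 was called higher with rescaling (0.59) and not with the covariate (0.07).

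The small-subunit processome assembles around the UTPA complex, which binds the start of the precursor, and the UTPB complex, which joins it. All 7 of their members were higher in SHEP, within 0.42 to 0.96. UTP4 (ENSG00000141076, chromosome 16, 69131291 to 69231130, plus strand), a UTPA subunit, had the largest change, with 51.3, 59.2 and 67.3 TPM in MYC-OFF and 94.0, 119 and 137 in MYC-ON, no overlap and a log2 change of 0.96 ± 0.032. WDR75, also of UTPA, had the smallest, 0.42 ± 0.037, with 35.3, 40.6 and 48.9 TPM against 40.3, 55.6 and 65.8. In SKNAS UTP15 of UTPA and UTP6 and UTP18 of UTPB were higher, and 4 UTPA members were not called: UTP4 at 0.46, WDR43 at 0.48, WDR75 at 0.14 and HEATR1 at -0.14 (adjusted p of 0.204, 0.151, 0.538 and 0.758). HEATR1, the largest UTPA subunit, ranged from 5.51 to 9.32 TPM in the 3 MYC-OFF libraries with a low median and from 13.8 to 53.6 in the other 11. In MYC-ON it ranged from 7.58 to 10.3 TPM in the 4 such libraries and from 19.6 to 86.8 in the other 9. With the covariate all 4 were called higher, at 1.18, 1.121, 0.52 and 0.73. With rescaling UTP4 (0.81), WDR43 (0.83) and WDR75 (0.49) were called and HEATR1 (0.20, adjusted p = 0.472) was not.

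The 5 proteins of the U3 snoRNP and the MPP10 complex, which hold U3 RNA on the precursor, were higher in SHEP. IMP4 had the largest change at 1.05 ± 0.043, from 119, 139 and 167 TPM to 203, 297 and 347 without overlap. RRP9 and IMP3 followed with 0.84 ± 0.045 and 0.68 ± 0.058, and MPHOSPH10, the complex's namesake, with 0.43 ± 0.049. UTP3 had the smallest change, 0.37 ± 0.05, and its ranges overlapped (43.5, 49.96 and 56.5 TPM against 39.3, 65.2 and 88.6). In SKNAS RRP9, IMP3 and IMP4 were higher, whereas MPHOSPH10 (0.18, adjusted p = 0.482) and UTP3 (0.20, adjusted p = 0.234) did not pass. With the covariate MPHOSPH10 passed at 0.61 and UTP3 did not, at 0.22, whereas with rescaling both passed, at 0.52 and 0.53.

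The 8 other processome factors, with 5 higher and 1 lower, were the only step with calls in both directions in SHEP. DDX10, an RNA helicase, had the largest change, 1.17 ± 0.055, from 18.1, 21.2 and 30.3 TPM to 37.9, 47.0 and 83.9, without overlap. NOP14 (1.08 ± 0.026), the RNA acetyltransferase NAT10 (0.78 ± 0.037), the methyltransferase EMG1 (0.65 ± 0.058) and NOL6 (0.63 ± 0.036) were also higher, and these 5 were the ones called higher in SKNAS. NOP9 (ENSG00000196943, chromosome 14, 24299850 to 24309124, plus strand), an RNA-binding protein of the early small-subunit precursor, was the one member called lower in SHEP. It had 14.5, 17.7 and 20.4 TPM in MYC-OFF and 7.77, 14.4 and 19.8 in MYC-ON, and MYC-ON was lower in 27 of 28 pairs although the ranges overlapped. Its log2 change was -0.35 ± 0.059 (adjusted p = 7.72e-07). UTP20 (ENSG00000120800, chromosome 12, 101280105 to 101386618, plus strand), a very large scaffold protein, was at 11.5, 16.0 and 21.8 TPM in MYC-OFF and 9.37, 17.1 and 24.9 in MYC-ON and did not pass (0.06 ± 0.077, adjusted p = 0.483). For UTP14A, a cofactor of the helicase that removes U3, the adjusted p was 0.00503 but the change of 0.13 ± 0.042 was under 0.15. In SKNAS NOP9 (-0.51 ± 0.22), UTP20 (-0.31 ± 0.31) and UTP14A (0.17 ± 0.21) did not pass, with adjusted p of 0.0615, 0.427 and 0.532. UTP20 turned from negative to 0.48 with the covariate and was then called higher, as was UTP14A at 0.65. With rescaling UTP14A was called at 0.50, and UTP20 (0.0056) and NOP9 (-0.21) were not.

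Late 40S maturation takes the precursor out of the nucleus and makes the final cuts. All 6 members were higher in SHEP. TSR1, a GTPase-like protein that blocks early subunit joining, had the largest change, 1.04 ± 0.03, from 46.8, 55.2 and 63.8 TPM to 93.8, 117 and 139 without overlap. NOB1, the endonuclease of the last cut, changed by 0.85 ± 0.035 and its partner PNO1 by 0.52 ± 0.044. LTV1 and RRP12, both linked to export, changed by 0.54 ± 0.052 and 0.42 ± 0.027. BYSL had the smallest change, 0.19 ± 0.043, and its ranges overlapped (28.6, 34.0 and 39.8 TPM against 27.3, 38.0 and 51.6). In SKNAS NOB1, LTV1 and RRP12 were higher, and TSR1 (0.37), PNO1 (0.38) and BYSL (0.23) did not pass, with adjusted p of 0.227, 0.114 and 0.0799. These 3 were called higher with the covariate, at 0.98, 0.78 and 0.31, and with rescaling, at 0.72, 0.71 and 0.58.

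The 3 subunits of the PeBoW complex, which processes the large-subunit precursor, rose in both lines. In SHEP the changes were 1.13 ± 0.048 for BOP1, 1.07 ± 0.041 for WDR12 and 1.05 ± 0.028 for PES1. BOP1 had 45.6, 52.7 and 66.7 TPM in SHEP_MYC-OFF and 77.4, 123 and 148 in SHEP_MYC-ON, and PES1 had 94.4, 104 and 121 and 173, 217 and 251, both without overlap. In SKNAS the values were 1.03 ± 0.12, 0.85 ± 0.11 and 1.27 ± 0.15, each higher in 13 of 13 pairs of the same CT.

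Of the 13 other nucleolar 60S factors, 11 were higher in SHEP. RRP1B, a nucleolar protein related to RRP1, had the largest change, 1.42 ± 0.038, from 22.3, 29.9 and 35.95 TPM to 60.9, 80.3 and 100.1 without overlap. EBNA1BP2, an early large-subunit factor, came next at 1.41 ± 0.04, then WDR74, RRP1 and NOP16 at 1.19, 1.17 and 1.16. A second level held the helicase DDX18, PPAN, the methyltransferase RRP8, BRIX1 and the methyltransferase NOP2, between 0.38 and 0.54, and NIP7 lay lower at 0.21 ± 0.046. PPAN is next to P2RY11 and forms read-through transcripts with it, so its reads could be shared. RRS1, which brings the small RNA of the 60S subunit into the precursor together with a partner, did not pass in SHEP: it had 60.6, 70.2 and 78.6 TPM in MYC-OFF and 48.1, 68.3 and 98.1 in MYC-ON, and a change of -0.07 ± 0.046 (adjusted p = 0.157). The helicase DDX56 did not pass either (0.05 ± 0.036, adjusted p = 0.242), with 96.4, 109.9 and 129 TPM against 75.9, 118 and 139. In SKNAS 9 of the 13 were higher, and RRS1 was the one member of the module called lower, at -0.47 ± 0.17 (adjusted p = 0.0361, lower in 11 of 13 pairs). That call was lost with no filter on low genes (adjusted p = 0.0673), with rescaling (-0.12) and with the covariate (-0.13). NOP2 (0.09), DDX18 (-0.10) and DDX56 (0.28) did not pass in SKNAS, with adjusted p of 0.83, 0.777 and 0.0813, and with the covariate NOP2 and DDX18 did, at 0.82 and 0.56. With rescaling it was the other way, since DDX56 passed (0.62) and NOP2 (0.43) and DDX18 (0.24) did not.

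The last step held GTPases, a release factor and a processing factor of the 60S subunit, and all 5 were higher in SHEP. MRTO4, which holds the place of a stalk protein until late maturation, had the largest change at 1.098 ± 0.04, from 53.4, 58.4 and 65.7 TPM to 88.4, 127 and 158 without overlap. The GTPase GTPBP4, the spacer-cleaving complex subunit LAS1L and nucleostemin (GNL3) followed at 0.97 ± 0.069, 0.95 ± 0.025 and 0.79 ± 0.031. GNL3L, a GTPase related to nucleostemin, had the smallest, 0.17 ± 0.039, with overlapping ranges of 36.01, 44.3 and 57.4 TPM and 32.3, 51.3 and 61.8. In SKNAS the first 4 were higher and GNL3L did not pass (-0.22 ± 0.27, adjusted p = 0.51), with 0.43 and a call under the covariate and 0.10 and no call with rescaling.

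The members were compared with 75 further ribosome biogenesis genes, 33 of the small and 42 of the large subunit. This list, too, was chosen with earlier results of these data known. Of these, 64 were higher and 3 lower in SHEP, with a median of 0.49, beside the 33.0% and 38.9% of all genes. In SKNAS 39 were higher and 1 lower, with a median of 0.45, beside 13.7% and 34.4% of all genes. The SKNAS counts became 62 and 0 with rescaling (median 0.79) and 65 and 0 with the covariate (median 0.63). The largest rises in SHEP were MDN1 (1.47 ± 0.17), a giant motor protein that remodels the 60S precursor, and NOC4L (1.42 ± 0.034), a partner of NOP14. The largest falls were RRP36 (-0.39 ± 0.046), from 102 ± 7.35 to 79.7 ± 16.3 TPM (SD, n = 28 each), and EFL1 (-0.34 ± 0.085), a GTPase of late 60S release, from 18.7 ± 5.18 to 15.001 ± 6.47 TPM. With NOP9, 3 small-subunit factors of the combined lists were thus lower in SHEP: NOP9, RRP36 and DDX47 (-0.20 ± 0.039, a helicase, named after its value was seen).

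A difference of the change between lines, SKNAS minus SHEP, was tested with an interaction term in a fit of all 83 libraries. Among the members 9 had a larger and 16 a smaller change in SKNAS, against 13.4% and 38.1% of the 14870 genes tested, and the median difference was -0.14, beside -0.22 over all genes. These counts turned with the scaling, to 22 and 3 with rescaled TPM (25.3% and 24.9% of all genes) and to 13 and 8 with the covariate (25.4% and 21.7%). They fell to 6 and 5 without SHEP series 1 (9.8% and 22.3%) and to 2 and 5 without SHEP series 2 (8.68% and 22.2%). In either direction 51.5% of all genes were called, so the 25 members are a smaller share than that background. The 3 members called with the same sign under every alternative tried were RRP9, RRP12 and NOLC1. The share of all genes that met this was not counted. RRP9 (ENSG00000114767, chromosome 3, 51933429 to 51941904, minus strand), the U3-specific protein, had 44.1, 50.9 and 56.3 TPM in SHEP_MYC-OFF and 62.1, 91.2 and 122 in SHEP_MYC-ON. In SKNAS it had 18.2, 25.6 and 32.7 TPM in MYC-OFF and 57.8, 83.4 and 103 in MYC-ON. The MYC-OFF level was lower in SKNAS, the MYC-ON ranges of the lines overlapped, and the change was larger in SKNAS by 0.79 ± 0.095 (adjusted p = 3.95e-10).

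RRP12 (ENSG00000052749, chromosome 10, 97356358 to 97426076, minus strand), an export-linked 40S factor, also changed more in SKNAS, with 53.2, 62.4 and 67.9 TPM against 68.8, 82.95 and 100.6 in SHEP and 35.97, 43.2 and 53.6 against 79.8, 92.0 and 117 in SKNAS. Its difference between lines was 0.69 ± 0.068 (adjusted p = 9.2e-13), and the groups did not overlap in either line. NOLC1 went the other way, at -0.84 ± 0.14 (adjusted p = 7.52e-07), with 43.9, 124 and 159.8 TPM in SKNAS_MYC-OFF and 105, 208 and 409 in SKNAS_MYC-ON, ranges that overlapped there and not in SHEP. TSR1 (-0.68 ± 0.16) and NIP7 (0.22 ± 0.097) were also called under TPM, rescaling and covariate, but TSR1 lost its call without SHEP series 1, and NIP7 lost it without SHEP series 2, with a pseudocount of 0.1 and with no filter. Of the remaining 20, FBL, WDR12, RRP1B, MYBBP1A, UTP4 and HEATR1 changed sign under rescaling or the covariate. The fit uses 1 error estimate per gene for both lines, although the members' median SD on the log2 scale was 0.09 and 0.21 in the SHEP groups and 0.36 and 0.42 in the SKNAS groups.

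**Figure D3:**
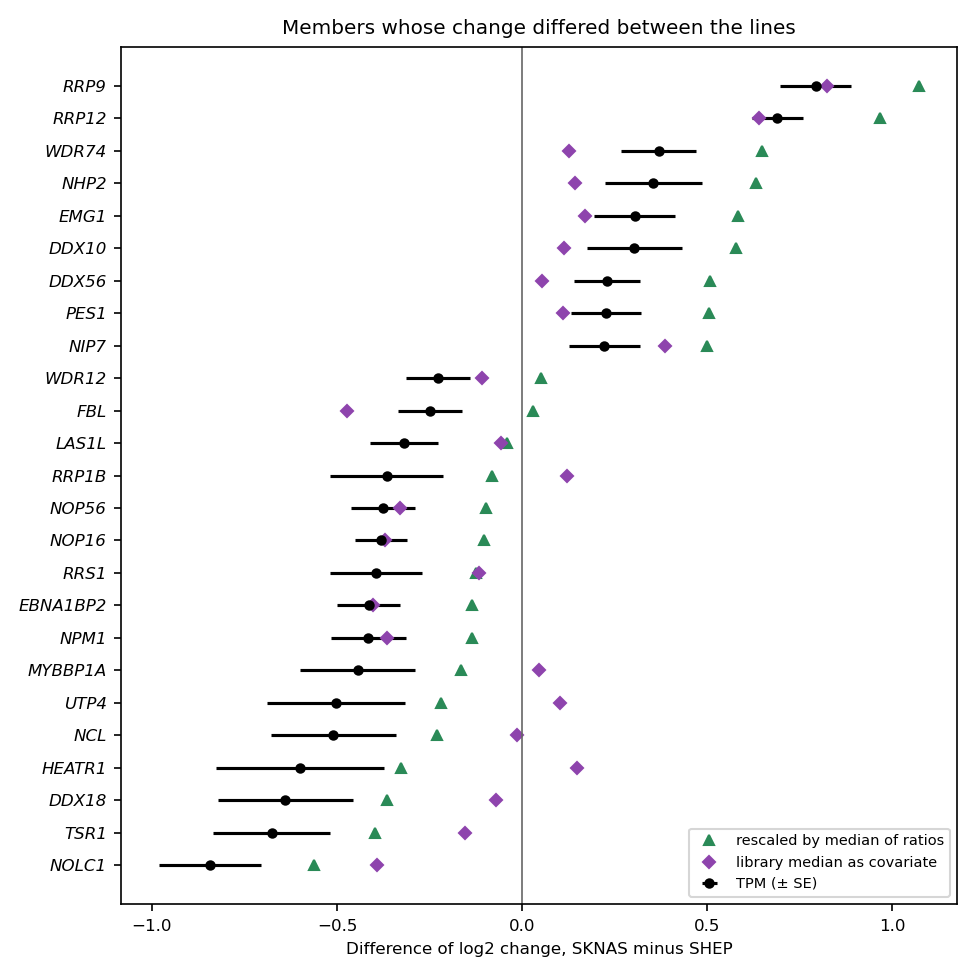
Difference of the log2 change, SKNAS minus SHEP (horizontal axis), for the 25 members whose difference was called on TPM (black, ± SE), with the values after rescaling (triangles) and with the library median as a covariate (diamonds). RRP9 and RRP12 stay to the right and NOLC1 to the left of 0 in all 3, while 6 of the others cross 0.

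Across the 59 members the change in SHEP went with the change in SKNAS, with Pearson's r = 0.77 and Spearman's rho = 0.79, beside 0.67 and 0.66 across the 12306 genes tested in both lines. Genes are not independent replicates, and the lines share no libraries. The difference between the lines had a Spearman's rho of -0.27 with the length of the canonical transcript on TPM and of 0.26 with the covariate, so its sign turned with the scaling.

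In MYC-OFF 25 members were higher and 18 lower in SKNAS than in SHEP, against 31.8% and 46.6% of all genes. In either direction 78.4% of all genes were called, and the members' calls on TPM are a smaller share than that. The members' counts became 32 and 18 with rescaling, 33 and 16 with the covariate and 33 and 17 without the SKNAS libraries of low median. Their median difference was 0.09 on TPM and 0.29, 0.22 and 0.22 in these fits, beside -0.19, -0.02, 0.04 and 0.01 over all genes. Shares of all genes called are given for TPM only. The 3 box C/D and the 4 box H/ACA proteins were all higher in SKNAS, led by FBL (1.15 ± 0.07) and DKC1 (0.87 ± 0.085). LAS1L (0.89 ± 0.087) and BRIX1 (0.71 ± 0.065) were higher as well. In contrast, 5 of 8 other processome factors were lower in SKNAS, and the lowest members were GNL3L (-1.83 ± 0.14), NOP9 (-1.29 ± 0.14), UTP3 (-1.26 ± 0.061), UTP14A (-1.07 ± 0.11) and WDR43 (-1.07 ± 0.16). GNL3L had 36.01, 44.3 and 57.4 TPM in SHEP_MYC-OFF and 3.43, 13.5 and 22.0 in SKNAS_MYC-OFF, without overlap. Each line was collected in time series of its own, so line and series cannot be told apart.

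Over the collection window no member had a called slope in SHEP_MYC-OFF, and in SHEP_MYC-ON many fell. By limma, 0 of 59 members had a called slope in MYC-OFF, where 2.9% of genes were called rising and 5.06% falling at 0.15 per 24 h or more. At an unadjusted p under 0.05 there were 9 members, and the share of all genes at that level is not given here. The median slope in MYC-OFF was -0.019 per 24 h, beside -0.018 over all genes. In MYC-ON 33 members fell and 1 rose, against 30.9% and 16.6% of genes, with a median slope of -0.17 per 24 h beside -0.05 over all genes. The slope difference between conditions was called lower for 31 members and higher for 3, against 24.7% and 14.7% of genes, and 30 members were called lower in both comparisons. The series differed in extent: with series 2 alone 19 members fell in MYC-ON (26.4% of all genes) and with series 1 alone 43 (30.6%). In each series alone as well as in both together, 16 members fell, as did 17.6% of all genes. Of these, 14 members also fell with rescaled TPM and with the covariate, as did 15.2% of all genes: BOP1, BYSL, IMP3, NAT10, NCL, NIP7, NOL6, NOP16, NOP9, RRP1B, RRP9, RRS1, UTP20 and UTP3.

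**Figure D4:**
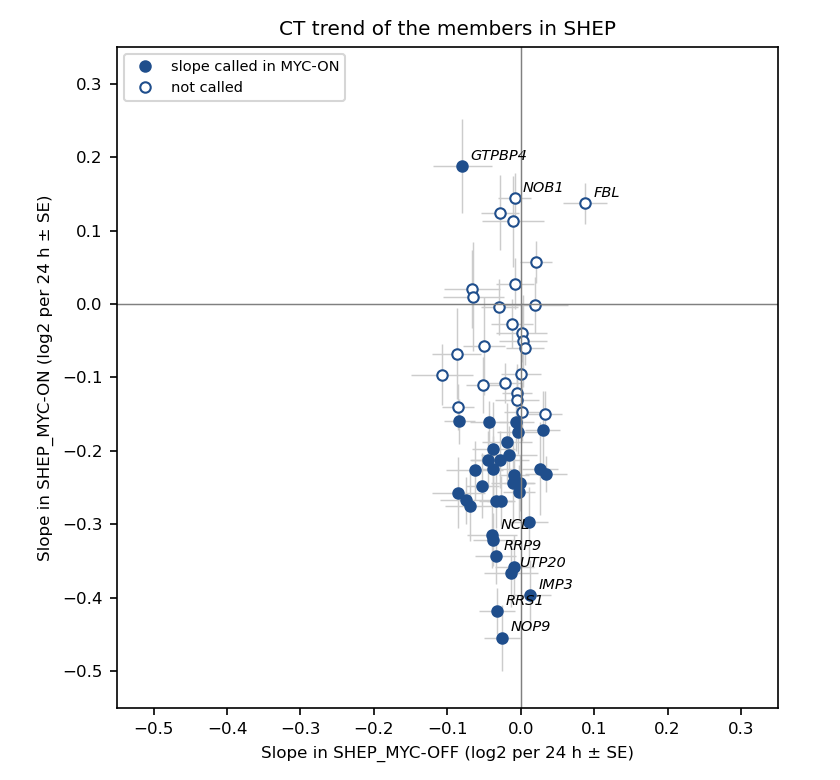
Slope of each of the 59 members over CT in SHEP_MYC-ON (vertical axis) against SHEP_MYC-OFF (horizontal axis), both in log2 units per 24 h with SE, filled where the MYC-ON slope was called. The MYC-OFF slopes lie between -0.11 and 0.09, and the MYC-ON slopes run from -0.45 (NOP9) to 0.19 (GTPBP4).

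For RRS1, UTP20, UTP14A and DDX56, which were not called higher in SHEP, the mean over CT combined early and late collections. The means of those early and late collections lay on different sides of MYC-OFF. RRS1 in MYC-ON had a mean of 87.4 ± 6.68 TPM at CT24 to CT36 and 52.7 ± 3.40 at CT64 to CT76 (SD, n = 8 each), while MYC-OFF had 73.3 ± 4.27 and 70.3 ± 3.13. MYC-ON was thus above MYC-OFF in the early window and below it in the late one, and the slopes differed by -0.39 ± 0.039 per 24 h (adjusted p = 1.28e-11). UTP20 showed the same order, with 21.0 ± 2.72 and 13.4 ± 3.47 TPM in MYC-ON against 17.0 ± 2.41 and 17.1 ± 3.24 in MYC-OFF, and a slope difference of -0.35 ± 0.059 (adjusted p = 2.05e-06). UTP14A (-0.24 ± 0.043) and DDX56 (-0.17 ± 0.045) also had called slope differences, which were lost with series 2 alone (-0.15 and -0.09, adjusted p = 0.0554 and 0.235). BYSL (-0.28 ± 0.044), a weakly raised member, had one that was called in each series alone. NOP9 began near MYC-OFF, at 17.7 ± 1.52 TPM against 18.3 ± 1.13, and ended at 9.82 ± 1.75 against 17.8 ± 1.71, with a slope difference of -0.43 ± 0.051 (adjusted p = 9.99e-10). The windows were chosen to describe the slopes and were not tested on their own.

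Some members with a mean above MYC-OFF in both windows also declined. IMP3 fell from 146 ± 12.6 to 90.6 ± 12.8 TPM between these windows in MYC-ON, with 73.7 ± 6.11 and 74.7 ± 5.01 in MYC-OFF, and its MYC-ON slope was -0.40 ± 0.048 (adjusted p = 5.77e-08). RRP9 fell from 113 ± 8.13 to 75.3 ± 8.39 TPM (slope -0.34 ± 0.037) and NCL from 1609.7 ± 91.2 to 1135 ± 257 (slope -0.32 ± 0.045). By step, 4 of 5 U3 and MPP10 proteins, 6 of 8 other processome factors, 4 of 6 late 40S factors and 9 of 13 other 60S factors fell. So did 2 of 3 box C/D, 2 of 4 box H/ACA and 2 of 3 PeBoW proteins. In the nucleolar scaffold step and in the step with the 60S GTPases 2 of 5 fell. Of the 7 UTPA and UTPB members 0 were called, with slopes of -0.15 to 0.12. UTP18 missed the limit of 0.15 narrowly (-0.1497 ± 0.031, adjusted p = 0.000146) and its slope difference was called lower (-0.18 ± 0.036). The steps were not tested against each other. The slopes of NPM1 (0.02 ± 0.053) and DDX21 (-0.0041 ± 0.038) did not pass, and FBL (0.14 ± 0.027) and NOB1 (0.14 ± 0.034) had positive slopes under 0.15. GTPBP4 was the member called rising (0.19 ± 0.063, adjusted p = 0.0131), which rested on series 2, since series 1 alone gave a slope of -0.04. In SKNAS limma called 0 members in either condition and 0 slope differences, where 0.0%, 0.0936% and 0.0792% of all genes were called. At an unadjusted p under 0.05 there were 28 and 1 members and 2 slope differences. The share of all genes at that level is not given here. The members' median slope per 24 h was -0.26 in SKNAS_MYC-OFF and -0.24 in SKNAS_MYC-ON, beside -0.31 and -0.20 over all genes.

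**Figure D5:**
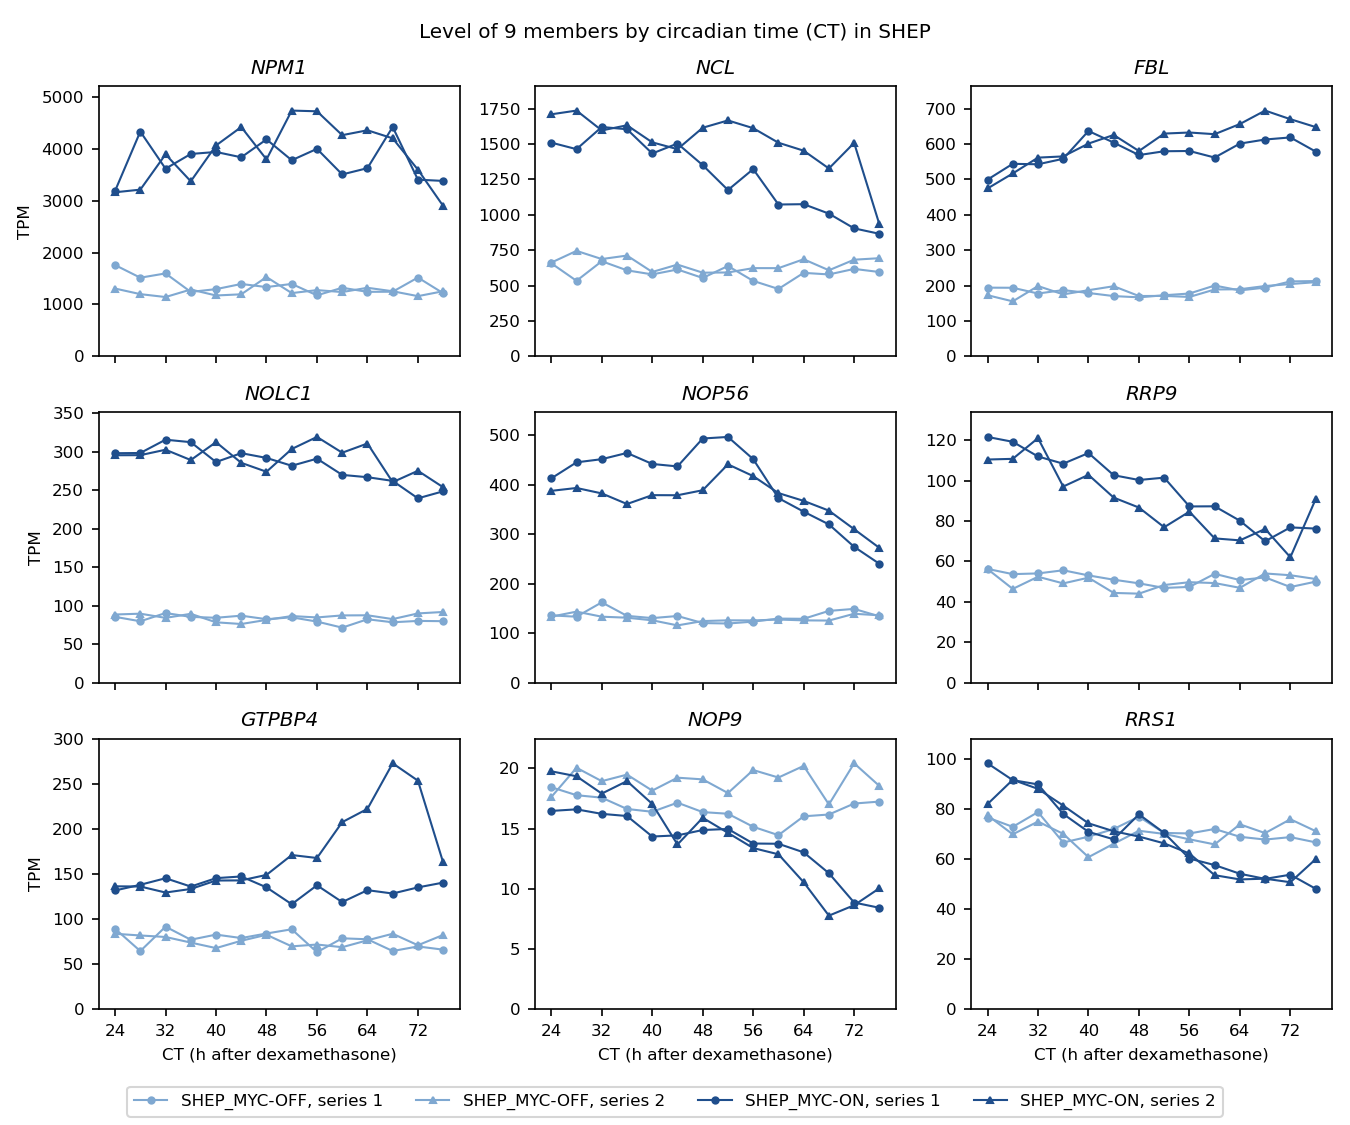
TPM (vertical axis, from 0) of 9 members against CT (horizontal axis, h after dexamethasone) in SHEP, with 1 line per series and condition. NOLC1, NPM1, FBL and NOP56 in MYC-ON lie above MYC-OFF at every CT, RRS1 crosses from above to below MYC-OFF, and the late rise of GTPBP4 is seen in series 2 only.

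A rhythm of 24 h was not detected in any member by a test of that fixed period, which called few genes of any kind. After removal of the linear trend, limma's F test called 0 of 59 members in SHEP_MYC-OFF, SHEP_MYC-ON, SKNAS_MYC-OFF and SKNAS_MYC-ON, against 0.0905%, 0.0209%, 0.0% and 0.0% of all genes. With so few genes called, the result does not set the members apart. The paper used another tool, ECHO, which was not run here, and found many oscillating genes in MYC-OFF. It also reported ribosome and RNA metabolism programs among those that lost oscillation in SHEP and SKNAS. At an unadjusted p under 0.05 there were 6, 4, 0 and 0 members, where 10.4%, 10.7%, 0.432% and 0.331% of all genes reached it. The 6 in SHEP_MYC-OFF were MYBBP1A, WDR43, EMG1, BYSL, NOP16 and PPAN, with amplitudes of 0.07 to 0.09 on the log2 scale. In SHEP_MYC-ON they were BYSL, RRP1B, RRS1 and LAS1L, with amplitudes of 0.06 to 0.09. The members' median amplitude was 0.033 in SHEP_MYC-OFF and 0.048 in SHEP_MYC-ON, beside 0.059 and 0.070 over all genes tested. The difference of rhythm between conditions was called for 0 members in either line (1 and 0 at an unadjusted p under 0.05), as for 0.0% of all genes. In SKNAS the members' median amplitudes were 0.11 and 0.16, beside 0.16 and 0.19 over all genes.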

How the data were processed

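The authors quantified polyadenylated RNA of 83 libraries with Salmon 1.3.0 against Gencode release 35 (GRCh38), summed transcripts to genes with Tximport and took gene symbols from Ensembl release 101. The deposited values are TPM per gene and library, each library scaled to a fixed total, so the depth is unknown and no counting error can be given. The number of libraries limits the precision, and p-values measure the spread between time points of 1 or 2 series. Per-sample columns left unused numbered 0.

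The study used DESeq2 with time and condition on counts, which are not used here. In its place limma 3.58.1 (R 4.3.3) was fitted to log2(TPM + 1) over all genes with a mean of at least 1 TPM, with CT as a factor and condition as the effect, within each line. The difference between lines was the interaction of line and condition over 83 libraries. Slopes used CT as a linear term, per 24 h, and rhythms used a cosine and sine of 24 h beside the slope. Calls needed an adjusted p no higher than 0.05 and a log2 difference of 0.15 or more, and 0.66 marked the 1.5-fold level. Groups came from the labels. The fits were tested on simulated data.

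The 59 members and the 75 related genes were chosen with earlier results of these data known. Named genes were the members with the largest and smallest SHEP change of each step, those not called higher, those with called line differences, the steepest slopes and the most abundant, and the largest changes of the related list. Other members were added for their place in a complex. Promoters came from RefSeq (GRCh38.p14), gene coordinates from Gencode release 44 (GRCh38). Alternatives were a pseudocount of 0.1, no filter, rescaling by median of ratios, the library median as a covariate, each SHEP series left out, series as a block, series means, SKNAS libraries with a median under 3.3 left out, and periods of 20 and 28 h.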

Additional observations from a re-analysis of the deposited data

Results flagged for a closer look

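The change between MYC-OFF and MYC-ON differed between the lines, by the test of the difference itself, for 25 of the 59 members, a smaller share than the 51.5% of all genes called in the same test. Without SHEP series 1 the count was 6 higher and 5 lower, and without SHEP series 2 it was 2 and 5. Values are the SKNAS change minus the SHEP change on the log2(TPM + 1) scale. Larger in SKNAS were RRP9 (0.79), RRP12 (0.69), WDR74 (0.37), NHP2 (0.35), EMG1 (0.30), DDX10 (0.30), DDX56 (0.23), PES1 (0.23) and NIP7 (0.22). Smaller in SKNAS were NOLC1 (-0.84), TSR1 (-0.68), DDX18 (-0.64), HEATR1 (-0.60), NCL (-0.51), UTP4 (-0.50), MYBBP1A (-0.44), NPM1 (-0.42), EBNA1BP2 (-0.41), RRS1 (-0.40), NOP16 (-0.38), NOP56 (-0.38), RRP1B (-0.37), LAS1L (-0.32), FBL (-0.25) and WDR12 (-0.23). RRP9, RRP12 and NOLC1 held under each alternative tried, for which no share of all genes was counted.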

How the results depend on the processing

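The SHEP change kept its direction in every alternative, and 52 of 59 members kept their side of the threshold in each. SKNAS calls depended on the scaling. Members lower in SKNAS numbered 1 on TPM and 0 with no filter, with rescaling and with the library median as covariate, and members higher at the 1.5-fold level numbered 27, 43 with rescaling and 41 with the covariate. For the difference between lines, 9 members were higher and 16 lower, 22 and 3 with rescaling, 8 lower with the covariate, and 2 to 6 higher and 5 to 5 lower with 1 SHEP series left out. Slopes in SHEP_MYC-OFF gave 0 to 1 lower with 1 series left out. In SHEP_MYC-ON they gave 5 higher with rescaling, and 1 to 4 higher and 19 to 43 lower with 1 series left out. Slope differences in SHEP gave 19 lower with rescaling, and 1 to 3 higher and 18 to 32 lower with 1 series left out, and in SKNAS 1 higher with the covariate. The cause of these shifts was not tested.

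Direction turned in SKNAS for HEATR1 (0.20 rescaled, 0.73 covariate), UTP20 (0.0056 and 0.48), DDX18 (0.24 and 0.56) and GNL3L (0.098 and 0.43). For the difference between lines it turned with the covariate for MYBBP1A (0.046), UTP4 (0.10), HEATR1 (0.15) and RRP1B (0.12), and with rescaling for FBL (0.030) and WDR12 (0.052). NOP2 turned in the MYC-OFF line difference (0.064 covariate, 0.022 without the SKNAS libraries of low median). With 1 series left out, slopes ranged from -0.42 to 0.021 for LTV1 (positive without series 1) and from -0.040 to 0.42 for GTPBP4 (negative without series 2), and the slope difference of UTP6 from -0.015 (without series 2) to 0.32.

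The SHEP series share only a number, and their deviations correlated between conditions (r = 0.489 over 14362 genes). The fit with the series as a block gave 54 higher and 1 lower, as without it, and series means gave 49 and 1. In SKNAS libraries of the same CT were matched by the CT term. TPM hold no depth, so low members cannot be weighed by their counts.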

Other observations

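PTPRC, a leukocyte gene, followed the library median in SKNAS. It lay at 39.4 to 132 TPM in the 11 SKNAS_MYC-OFF libraries of ordinary median and at 13.03 to 14.4 in the 3 of low median. In SKNAS_MYC-ON it lay at 12.3 to 59.7 TPM in 9 libraries and at 3.13 to 9.05 in the 4 of low median. In the same 7 libraries of low median the members' median level was 5.21 to 5.44 (MYC-OFF) and 5.84 to 6.26 (MYC-ON) on the log2(TPM + 1) scale, against 5.76 to 6.25 and 6.53 to 6.92 in the others. The members' median level was thus lower in libraries of low median in both conditions. Those libraries were picked by the median of all tested genes, members included, so this does not set the ribosome biogenesis factors apart. A cause was not tested.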
